A study of Mus musculus with 43 samples.

Results

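The 10 genes described here encode the mitotic cyclins and kinases with their closest checkpoint partners, namely the cyclins Ccna2, Ccnb1 and Ccnb2, the kinases Cdk1, Aurka, Aurkb, Plk1, Bub1 and Bub1b (whose product BubR1 is a pseudokinase in vertebrates) and the anaphase activator Cdc20. They were taken by GENCODE vM21 symbol from the 55401 gene identifiers of the RNA tables, and all 10 were found and passed the filter on low counts in both RNA assays. Their RNA was followed in P7 mice in bulk RNA-seq of the testis (3 WT and 3 Prmt1 dKO libraries) and in Smart-seq2 of sorted spermatogonia (2 WT and 2 Prmt1 dKO libraries), and their promoters in 33 CUT&Tag peak lists of 7 histone marks. The CUT&Tag lists came from WT cells at P7 and at P14 for H4R3me2a, H3R2me2a, H3R8me2a, H4R3me1, H3K27ac, H3K4me3 and H4R3me2s, and from Prmt1 dKO cells at P7 for H4R3me2s alone, with 3 lists for H4R3me2a at each age and for H4R3me2s at P14 and 2 lists in each other group.

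In the Prmt1 dKO mice a tamoxifen-inducible Ddx4-CreERT2 knock-in, which also carries EGFP and acts in germ cells, excised floxed exons of Prmt1, and the labels give tamoxifen over 3 days for the RNA libraries of both genotypes and for the Prmt1 dKO CUT&Tag lists. The methods name heterozygous Ddx4-GFP-CreERT2-Prmt1 +/lox males as the source of the sorted control cells, while their label is WT, so these controls may carry 1 deleted allele. WT cells for CUT&Tag came from C57BL/6J mice, for which the labels give no tamoxifen of their own. The bulk libraries are labelled as spermatogonia, but the extraction described for them starts from whole testes. The P14 lists carry Spermatogonia in the title and Spermatocyte as the cell type, and the peak names inside the 3 P14 H4R3me2s lists read D17 rather than 14D, so the age of those lists is uncertain. The replicates are described as biological, without saying whether each library came from an animal of its own, and the p-values below measure the spread between libraries.

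In the GENCODE vM21 annotation (GRCm38, the mm10 build of the files) the genes are protein-coding and lie as follows, Ccna2 at chr3:36564865-36572150, Ccnb1 at chr13:100778650-100786570, Ccnb2 at chr9:70407692-70421547, Cdk1 at chr10:69335146-69352938, Aurka at chr2:172356190-172370535, Aurkb at chr11:69045647-69051664, Plk1 at chr7:122159439-122169873, Bub1 at chr2:127801122-127831865, Bub1b at chr2:118598211-118641591 and Cdc20 at chr4:118432901-118437352, and the RNA values are counts over all their annotated exons.

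Entry into mitosis is driven by CDK1 bound to A-type and B-type cyclins, while Aurora and Polo-like kinases build the spindle and correct the attachment of chromosomes to it. The spindle checkpoint proteins BUB1 and BUBR1 hold the anaphase-promoting complex in check, and CDC20 activates that complex once the chromosomes are aligned, so that the cyclins are destroyed. The genes are transcribed periodically, late in the cell cycle, and their RNA is abundant in dividing cells such as the spermatogonia and the Sertoli cells of the young testis.

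The bulk libraries held 12396317 to 16598233 counts and the Smart-seq2 libraries 15610354 to 18547078, and every member had at least 431 counts in each library. Prmt1 itself stood at 652, 604 and 638 TPM (a level scaled by transcript length and by the library's total) in WT testes and at 409.8, 433 and 402 TPM in Prmt1 dKO testes, and at 349.8 and 239 TPM against 179 and 151 TPM in sorted WT and Prmt1 dKO cells. Its log2 fold change was -0.49 (SE 0.13, edgeR FDR = 0.0334) in bulk and -0.88 (SE 0.26, edgeR FDR = 0.133) in Smart-seq2, and counts over the whole gene check the loss of the floxed exons only in part. The biological coefficient of variation over all genes was 0.155 in bulk and 0.767 in Smart-seq2, so a given difference was measured far less precisely in the sorted cells. Smart-seq2 found 17106 and 15587 genes with a count in WT and 21404 and 20194 in Prmt1 dKO. In bulk, the 12 Sertoli cell markers summed to 7127 to 7763 TPM in WT and 5067 to 5483 TPM in Prmt1 dKO, above the 1717 to 1995 TPM and 1639.8 to 1715 TPM of the 14 germ cell markers. The 7 Leydig cell markers summed to 658 to 757 TPM in WT testes and 165 to 185 TPM in Prmt1 dKO testes, and the 7 peritubular myoid markers to 903 to 974.7 TPM and 347 to 543 TPM. In the sorted cells the germ cell markers summed to 3376 to 3461 TPM in WT and 2781 to 2854 TPM in Prmt1 dKO. Of the 14 markers 12 had an estimate above 0 (median log2 fold change 0.60, none passed with edgeR). Over all genes tested 44.1% had an estimate below 0, and the median was 0.15. Zbtb16 (1107 and 29 counts) and Sohlh2 (1396 and 57 counts) differed widely between the WT libraries. Tex101 stood at 1576 and 1591 TPM in WT and at 651 and 628 TPM in Prmt1 dKO and accounts for the lower sum. These 3 markers were named after their values were seen. In the same cells the Sertoli cell markers summed to 313 to 322 TPM and 438 to 613 TPM, and the 8 macrophage markers to 0 to 5.02 TPM and 52.4 to 56.4 TPM. The part of these cell types in the results below was not tested.

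Among the members, levels in WT testes ran from Cdk1 at 178 ± 19.6 TPM down to Bub1 at 37.4 ± 5.15 TPM (SD, n = 3). Ccnb1 and Cdc20, whose libraries overlapped with each other, followed Cdk1, then came Ccna2, Ccnb2, Aurkb, Plk1 and Bub1b, each overlapping with its neighbour in that order, and then Aurka. In sorted WT cells the order began with Cdc20 at 307 ± 44.6 TPM (SD, n = 2) and ended with Bub1b at 26.4 ± 11.1 TPM. Ccnb1, Ccna2, Cdk1, Ccnb2 and Bub1 lay between 116 and 181 TPM on average there and each overlapped with the next, while Plk1, Aurkb and Aurka lay between 70.8 and 83.2 TPM and overlapped likewise. Levels in sorted WT cells were above all WT testis libraries for Ccna2, Ccnb2, Aurka, Bub1 and Cdc20, with Bub1 at 3.10 times and Cdc20 at 2.49 times the testis mean. Cdk1 and Bub1b were the reverse, at 0.721 and 0.474 times the testis mean, and Ccnb1, Aurkb and Plk1 overlapped between the assays. The 2 assays differ in library chemistry as well as in cells, and these ratios of TPM carry no test.

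**Figure D1:**
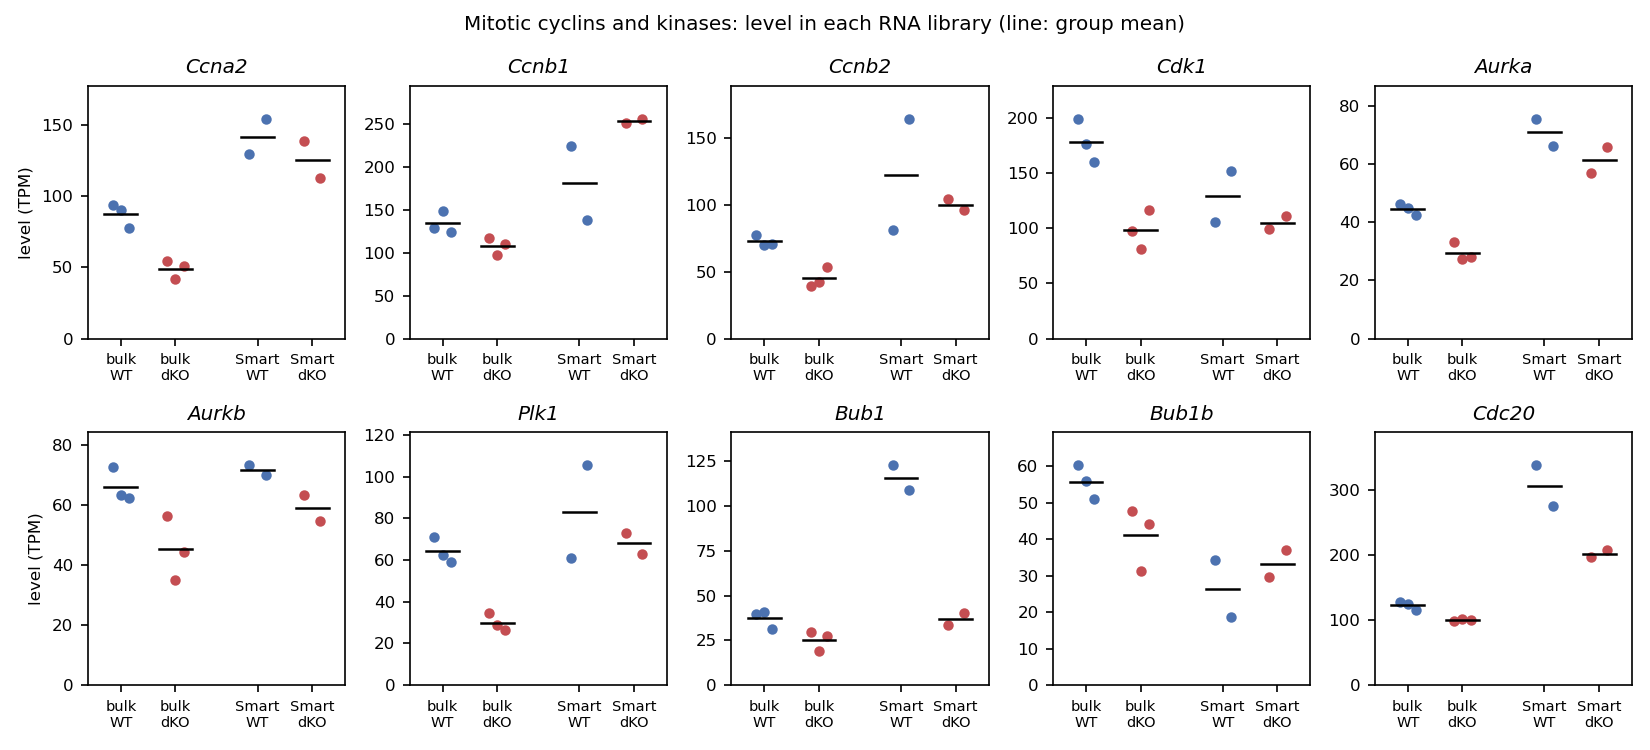
Level of each of the 10 genes in TPM in every RNA library (points) with the group mean (line), for WT (blue) and Prmt1 dKO (red) in bulk RNA-seq of the testis (3 and 3 libraries) and in Smart-seq2 of sorted spermatogonia (2 and 2 libraries); each panel starts at 0. Plk1 fell from 59.3 to 71.2 TPM in WT testes to 26.3 to 34.5 TPM in Prmt1 dKO testes, and Bub1 stood at 109 and 123 TPM in sorted WT cells and at 33.8 and 40.05 TPM in sorted Prmt1 dKO cells.

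In whole testes, RNA of most members was lower in Prmt1 dKO. Of the 10 members, 6 passed the test, in the same direction: Plk1, Cdk1, Ccna2, Aurkb, Ccnb2 and Aurka fell by 25.4% to 47.8%, and none of them by 2-fold, the size required for a call. Ccnb1, Bub1, Bub1b and Cdc20 did not pass, with estimates below 0. Over all 16554 genes tested in bulk, 8.51% passed the FDR of 0.05 in the lower direction and 1.78% were called lower at 2-fold or more. The median log2 fold change was -0.47 over the members and 0.02 over all genes tested. In a whole testis, fewer cells of a type and less RNA per cell cannot be told apart.

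Among the cyclins, Ccna2, the partner of CDK2 and CDK1 from S phase to early mitosis, stood at 94.0, 90.2 and 77.3 TPM in WT testes and at 54.1, 41.5 and 50.7 TPM in Prmt1 dKO testes. Its log2 fold change from the count model was -0.70 (SE 0.11, edgeR FDR = 0.00352). Every Prmt1 dKO library lay below every WT library. Ccnb2, a B-type cyclin, stood at 77.5, 70.1 and 70.7 TPM in WT and 39.1, 41.9 and 53.6 TPM in Prmt1 dKO, a log2 fold change of -0.53 (SE 0.15, edgeR FDR = 0.0384). Its libraries did not overlap either, and Prmt1 dKO library 3 was the nearest to WT. Ccnb1, the other main B-type cyclin, stood at 129, 149 and 125 TPM in WT and 117, 97.4 and 110.3 TPM in Prmt1 dKO, and its log2 fold change of -0.22 had a 95% confidence interval from -0.45 to 0.00 (edgeR FDR = 0.154). The WT and Prmt1 dKO libraries of Ccnb1 were also apart, but by a gap small beside the difference among the libraries of a genotype.

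Cdk1, the kinase that the cyclins activate, stood at 199, 176 and 159.6 TPM in WT testes and at 97.4, 80.9 and 117 TPM in Prmt1 dKO testes, a log2 fold change of -0.76 (SE 0.12, edgeR FDR = 0.00397). Plk1, the Polo-like kinase needed for mitotic entry and spindle assembly, stood at 71.2, 62.3 and 59.3 TPM in WT and 34.5, 28.8 and 26.3 TPM in Prmt1 dKO. With a log2 fold change of -0.94 (SE 0.12, edgeR FDR = 0.00224), Plk1 had the largest difference of the 10 members, and 2.78% of all tested genes had a lower estimate. Without the third Prmt1 dKO library Cdk1 came first, at -0.860 against -0.845 for Plk1. Aurkb, the catalytic subunit of the chromosomal passenger complex, stood at 72.5, 63.2 and 62.2 TPM in WT and 56.4, 35.2 and 44.3 TPM in Prmt1 dKO (log2 fold change -0.59, SE 0.11, edgeR FDR = 0.00751). Aurka, the Aurora kinase of centrosomes and spindle poles, stood at 46.2, 44.7 and 42.4 TPM in WT and 33.2, 27.2 and 28.0 TPM in Prmt1 dKO (log2 fold change -0.42, SE 0.10, edgeR FDR = 0.0214). For each of these 4 kinases all Prmt1 dKO libraries were below all WT libraries.

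None of the checkpoint genes passed. Bub1 stood at 39.8, 40.9 and 31.5 TPM in WT testes and 29.5, 18.8 and 27.6 TPM in Prmt1 dKO testes, with a log2 fold change of -0.34 (95% confidence interval -0.63 to -0.04, edgeR FDR = 0.101). Bub1b stood at 60.2, 55.9 and 50.9 TPM in WT and 47.7, 31.1 and 44.3 TPM in Prmt1 dKO (log2 fold change -0.30, 95% confidence interval -0.56 to -0.05, edgeR FDR = 0.0933). For both genes the WT and Prmt1 dKO libraries did not overlap. Cdc20 was at 129, 125 and 116 TPM in WT and 98.8, 102 and 99.9 TPM in Prmt1 dKO. After TMM scaling its libraries overlapped, because the second Prmt1 dKO library reached the level of the WT libraries, and its log2 fold change was -0.14 (95% confidence interval -0.39 to 0.11, edgeR FDR = 0.409). On that scale 9 of the 10 members had no overlap between genotypes in the lower direction, against 19.9% of all genes tested. The median gene had a log2 ratio of -0.13 by TPM and 0.02 by TMM-scaled CPM in bulk, and of -0.22 and 0.05 in Smart-seq2, and the members' TPM ratios read lower than the model's fold changes, except for Aurkb in bulk.

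Plk1, Cdk1 and Ccna2 passed in bulk whichever library was left out, and the 10 estimates stayed below 0. Without the first WT library 3 members passed and Aurkb, Ccnb2 and Aurka did not. Without the second or the third WT library 4 passed, with Ccnb2 and Aurka lost, and without the first Prmt1 dKO library 5 passed, with Ccnb2 lost. Without the second Prmt1 dKO library 7 passed, Cdc20 being added.

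**Figure D2:**
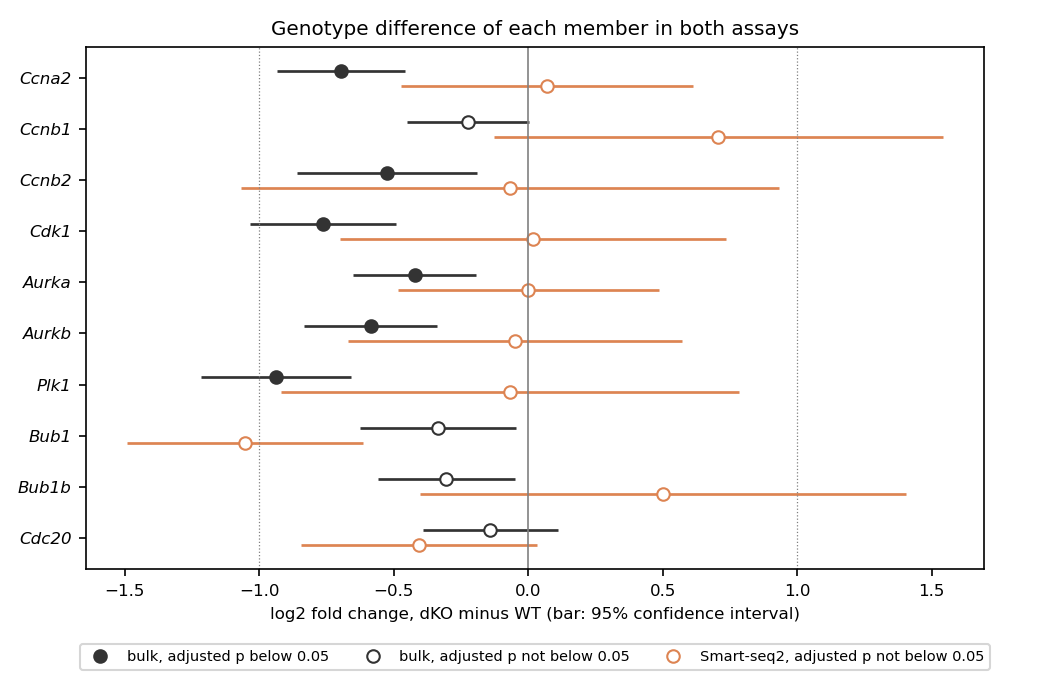
Log2 fold change of each member (Prmt1 dKO minus WT, edgeR) with its 95% confidence interval, in bulk RNA-seq (black) and Smart-seq2 (orange); filled points passed an FDR of 0.05 and dotted lines mark a 2-fold change. In bulk all 10 points lie below 0 and 6 are filled, while in Smart-seq2 the points spread from -1.05 for Bub1 to 0.71 for Ccnb1 and none is filled.

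In sorted spermatogonia, edgeR called 0 of the 10 members and 0 of 16443 genes, so that 0% is the share called lower over all genes. Before adjustment 3911 genes were below 0.05 in edgeR's test, and Bub1 was the only member among them. The lowest FDR of any gene in this assay was 0.0774, which Bub1 shared with other genes, and Bub1 ranked 165 by p-value. DESeq2 called 1 member, Bub1, at an adjusted p of 6.94e-06, where 3.93% of genes were called lower by 2-fold or more. Limma-voom called Bub1 as well (adjusted p = 0.0443), where the share was 0.912% of genes.

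Bub1, the kinase that builds the checkpoint signal at kinetochores, stood at 123 and 109 TPM in sorted WT cells and at 33.8 and 40.05 TPM in sorted Prmt1 dKO cells. In the count model its log2 fold change was -1.05 (SE 0.17, 95% confidence interval -1.49 to -0.61, edgeR FDR = 0.0774). Its ratio of Prmt1 dKO to WT was 0.319 by TPM and 0.482 by TMM-scaled CPM, and these scales also differ for the median gene, as given above. TPM divides by the effective transcript length that RSEM estimated, which for Bub1 was 2258 and 2260 bases in WT and 2873 and 2997 bases in Prmt1 dKO, an increase of 29.9% between the means. In bulk the Bub1 effective length lay between 2868 and 3168 bases in all 6 libraries. The other members' mean effective lengths in Smart-seq2 changed by factors of 0.969 to 1.07 between genotypes. Bub1 has 5 annotated transcripts of which 1 is coding, and which of them the sorted cells used was not analysed here. Cdc20, the other member with no overlap in the lower direction on TMM-scaled CPM, stood at 339 and 275 TPM in WT and 197 and 208 TPM in Prmt1 dKO (log2 fold change -0.41, 95% confidence interval -0.84 to 0.03, edgeR FDR = 0.241).

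In the other direction, Ccnb1 stood at 224 and 139 TPM in sorted WT cells and at 251 and 256 TPM in sorted Prmt1 dKO cells, with a log2 fold change of 0.71 (95% confidence interval -0.13 to 1.54, edgeR FDR = 0.281). Bub1b stood at 34.25 and 18.6 TPM in WT and 29.6 and 36.9 TPM in Prmt1 dKO (log2 fold change 0.50, 95% confidence interval -0.40 to 1.41, edgeR FDR = 0.487). For both genes the WT libraries differed from each other more than the Prmt1 dKO libraries did. After TMM scaling 2 members (Bub1 and Cdc20) had no overlap in the lower direction and 2 (Ccnb1 and Bub1b) in the higher direction, against 20.3% and 36.3% of all genes tested.

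The members that fell in whole testes had small estimates here, with wide intervals. Ccna2 stood at 129 and 154 TPM in sorted WT cells and 138 and 112 TPM in sorted Prmt1 dKO cells (log2 fold change 0.07, 95% confidence interval -0.47 to 0.61). Cdk1 stood at 106 and 151 TPM against 99.2 and 111 TPM (0.02, -0.70 to 0.73), and Plk1 at 61.0 and 105 TPM against 73.0 and 63.0 TPM (-0.07, -0.92 to 0.78). The second WT library was the higher of its pair for these 3 genes. Ccnb2 stood at 81.0 and 164 TPM against 104 and 96.0 TPM (-0.07, -1.07 to 0.93). Aurka stood at 75.4 and 66.3 TPM against 56.9 and 65.9 TPM (0.00, -0.48 to 0.48), and Aurkb at 73.2 and 70.2 TPM against 63.3 and 54.6 TPM (-0.05, -0.67 to 0.57). The intervals of Ccnb2, Aurka and Aurkb include the estimate seen in bulk for the same gene, while those of Ccna2, Cdk1 and Plk1 end above it, narrowly for Cdk1 and Plk1. Without the first WT library the log2 fold change was 1.21 for Ccnb1 and 1.03 for Bub1b, and without the second WT library it was -0.53 for Cdc20 and 0.55 for Ccnb2. Each such fit leaves a lone WT library that is assumed to vary like the Prmt1 dKO pair.

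A model over all 10 RNA libraries tested the genotype difference in Smart-seq2 minus that in bulk. This model assumed the same spread for a gene in both assays, although the coefficient of variation was 0.155 in bulk and 0.767 in Smart-seq2. Over the 19608 genes tested the median difference was 0.22. Ccna2 passed, with a log2 difference of 0.85 (SE 0.22, 95% confidence interval 0.36 to 1.35, edgeR FDR = 0.0252), against 14.7% of 19608 genes that passed in that direction. Ccnb1 (1.01, edgeR FDR = 0.0540), Cdk1 (0.87, 0.0559) and Plk1 (0.96, 0.0730) came next and did not pass, nor did Aurka (0.51, 0.0890), Aurkb (0.63, 0.0967), Bub1b (0.89, 0.102) and Ccnb2 (0.55, 0.410). Bub1 had an estimate in the other direction (-0.63, edgeR FDR = 0.0840), as had Cdc20 (-0.18, 0.606), where 4.24% of genes passed. Without the second Prmt1 dKO testis library Bub1 alone passed and Ccna2 did not. The count of members that passed ran from 0 to 6 when 1 library was left out, and it was 0 without the first sorted Prmt1 dKO library, without any one WT testis library or without the first Prmt1 dKO testis library. It was 5 without the first and 6 without the second sorted WT library.

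Other genes of cell division were read from 7 lists of 97 genes, with none of the members among them. The lists were chosen by function, with earlier results of these data known. In bulk 41 of the 96 tested passed in the lower direction, 8 of them at 2-fold or more, and 2 passed in the higher direction, where the shares of all genes were 8.51%, 1.78% and 10.6%. Without the first, the second or the third WT library 21, 24 and 27 passed in the lower direction and 0 in the higher, and without the second Prmt1 dKO library 5 were called lower. With a replicate block 27 and 0 passed. The median log2 fold change of these genes was -0.36 in bulk and 0.07 in Smart-seq2, where none passed with edgeR. In bulk all 10 genes of the mitotic chromosome list, which holds condensin subunits, topoisomerase II and spindle motors, passed in the lower direction (median -0.71). Of the 15 spindle checkpoint and kinetochore genes 8 passed (median -0.36), of 12 Aurora and Polo partners 6 (median -0.44), of 19 G1 and S phase genes 8 (median -0.40) and of the 15 tested genes of the CDK1 switch 5 (median -0.28). The anaphase-promoting complex list had 3 lower and 2 higher genes of 17 (median -0.19), and of 8 CDK inhibitors 1 passed (median -0.09).

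The largest differences in bulk among the 8 genes called lower were those of E2f8 and E2f7, the atypical E2F repressors, and of Cdkn2c, which encodes an inhibitor of CDK4 and CDK6. Cdkn2c ranged from 44.6 to 49.4 TPM in WT testes and from 15.1 to 22.4 TPM in Prmt1 dKO testes (log2 fold change -1.49, SE 0.12, edgeR FDR = 0.000362). E2f8 ranged from 7.92 to 9.96 TPM and from 2.18 to 2.92 TPM (-1.60, SE 0.16, edgeR FDR = 0.000949). E2f7 ranged from 9.53 to 9.86 TPM and from 3.27 to 4.12 TPM (-1.49, SE 0.17, edgeR FDR = 0.00134). None of these 3 genes, picked for a large change, overlapped between genotypes, and 19.9% of all genes tested had no overlap in the lower direction. The 2 higher genes, which passed in none of the fits without a WT library, were the anaphase-promoting complex subunits Anapc7 (0.42, SE 0.11, edgeR FDR = 0.0259) and Cdc26 (0.36, SE 0.11, edgeR FDR = 0.0470), and Cdkn1a, which encodes the inhibitor p21, had 0.79 (SE 0.25, edgeR FDR = 0.0574).

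In sorted cells no gene of the lists passed with edgeR, and the genes named here had the lowest edgeR p-values. DESeq2 called 8 of the 97 genes lower, against 3.93% of all genes, and limma-voom called 3, against 0.912%. In the higher direction they called 9 and 3, for which no share over all genes was taken. Cks2, which encodes a small subunit bound to CDK1, stood at 97.3 and 108 TPM in WT and at 207 and 219 TPM in Prmt1 dKO (log2 fold change 1.26, SE 0.22). Mad2l1, a spindle checkpoint gene, stood at 52.1 and 39.9 TPM against 95.9 and 90.3 TPM (1.27, SE 0.23), whereas in bulk it fell by 0.39 on the log2 scale (edgeR FDR = 0.0401). Cdkn1c, a CDK inhibitor, stood at 25.9 and 20.9 TPM against 66.3 and 60.6 TPM (1.65, SE 0.30). These 3 genes, picked for a low p, had no overlap between genotypes in the higher direction, as had 36.3% of all genes tested. In the lower direction Ccne2, a G1 and S phase cyclin, stood at 178 and 190.3 TPM against 47.2 and 60.0 TPM (-1.21, SE 0.18). Ccnb3, a cyclin of meiosis, stood at 16.9 and 17.5 TPM against 1.73 and 3.20 TPM (-2.59, SE 0.42), and Cdkn2d, a CDK4 and CDK6 inhibitor, at 89.5 and 86.0 TPM against 29.7 and 24.6 TPM (-1.50, SE 0.26). All 6 had an edgeR FDR of 0.0774 and did not pass. Beside these values, the spermatocyte markers summed to 716 to 718 TPM in sorted WT cells and to 384 to 431 TPM in sorted Prmt1 dKO cells, and their part was not tested.

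**Figure D3:**
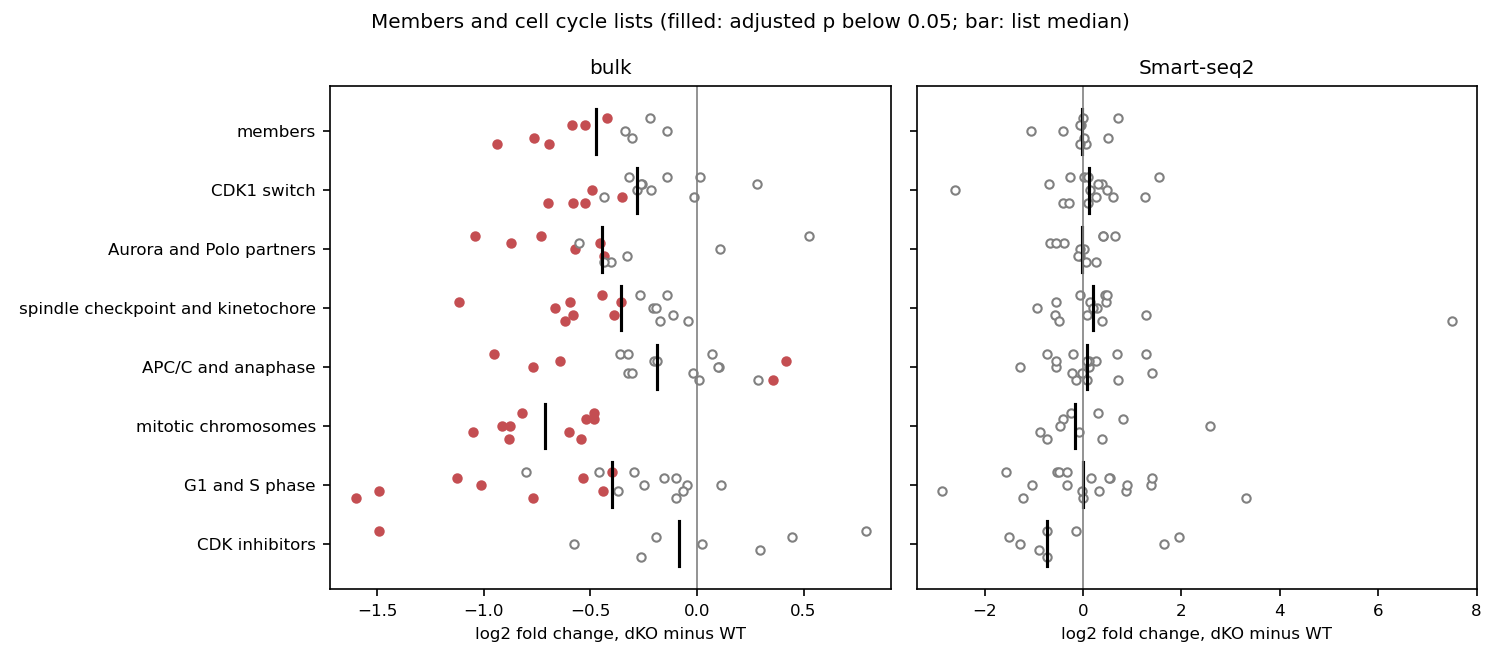
Log2 fold change (Prmt1 dKO minus WT, edgeR) of every tested gene of the 10 members and of 7 lists of the cell division machinery, in bulk RNA-seq and Smart-seq2, with the median of each list (line). In bulk the medians lie between -0.71 (mitotic chromosomes) and -0.09 (CDK inhibitors), and in Smart-seq2 the genes scatter on both sides of 0.

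Centred within each assay, the members did not all vary together over the 10 RNA libraries. Ccna2 (Pearson r = 0.973 with the mean of the members, itself included), Aurkb (0.931), Aurka (0.907), Cdk1 (0.883) and Plk1 (0.876) followed the members' mean closely, Ccnb2 less so (0.655), and Bub1b (0.389), Bub1 (0.363), Cdc20 (0.343) and Ccnb1 (0.273) weakly. Among 14161 other genes, those close to that mean included Aspm (0.956), a spindle pole protein gene, E2f7 (0.944), Ptma (0.943) and Cnih1 (0.940). These are descriptions over 10 libraries that share 2 genotypes and 2 assays.

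Neighbouring and similar genes bear on the counts of some members, since no source states whether counting used strand. The start of Cstf1 lies 146 bp from that of Aurka on the other strand, and its log2 fold change was -0.01 in bulk (edgeR FDR = 0.948) and 0.51 in Smart-seq2 (edgeR FDR = 0.251), where its Prmt1 dKO libraries lay above those of WT. Exosc9 overlaps Ccna2 and shares 431 bases with it, and had 0.01 in bulk (edgeR FDR = 0.976) at 371 to 559 counts per library and -0.55 in Smart-seq2 (edgeR FDR = 0.313), where its Prmt1 dKO libraries lay below those of WT. Ccnb1 has 5 near-identical pseudogenes, the closest of which, Ccnb1-ps, matches over 1287 bases at 99.2% identity and held at most 12 counts in bulk and 47 in Smart-seq2, so how Ccnb1 reads were split between copies is uncertain. The antisense gene Gm15489 starts 38 bp from Plk1 and had 1 to 4 counts in bulk.

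Promoters of genes of this kind are known for a cell cycle homology region (CHR, most often TTTGAA), bound by the DREAM and MuvB complexes, and for CCAAT boxes, bound by NF-Y. RefSeq promoter sequences (GRCm38.p6, 250 bases before to 50 after the start) were given for 8 of the 10 members, and not for Ccna2 and Aurkb. Of these 6 are shown 5′ to 3′ on the gene's own strand because they carry the elements of the genes with the clearest values above (Plk1, Cdk1, Ccnb2 and Aurka in bulk, Bub1 and Cdc20 in Smart-seq2). Capitals mark the CHR letters TTTGAA and also TTTAAA, the CCAAT box (read as ATTGG from the other strand) and the E2F string TTTCGCGC.
Plk1, chr7:122159185-122159484 (plus strand): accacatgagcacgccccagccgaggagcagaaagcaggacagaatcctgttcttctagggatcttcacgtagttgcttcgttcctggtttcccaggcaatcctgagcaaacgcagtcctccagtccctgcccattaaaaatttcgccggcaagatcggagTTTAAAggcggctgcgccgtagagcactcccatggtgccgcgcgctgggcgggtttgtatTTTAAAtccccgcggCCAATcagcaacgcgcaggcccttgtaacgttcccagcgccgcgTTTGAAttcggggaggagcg
Cdk1, chr10:69352863-69353162 (minus strand): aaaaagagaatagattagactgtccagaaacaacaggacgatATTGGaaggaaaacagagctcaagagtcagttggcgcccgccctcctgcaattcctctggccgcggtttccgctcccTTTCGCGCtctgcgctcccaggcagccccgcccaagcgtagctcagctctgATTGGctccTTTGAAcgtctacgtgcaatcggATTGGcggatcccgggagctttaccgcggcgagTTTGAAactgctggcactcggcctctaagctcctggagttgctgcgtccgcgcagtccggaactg
Ccnb2, chr9:70421505-70421804 (minus strand): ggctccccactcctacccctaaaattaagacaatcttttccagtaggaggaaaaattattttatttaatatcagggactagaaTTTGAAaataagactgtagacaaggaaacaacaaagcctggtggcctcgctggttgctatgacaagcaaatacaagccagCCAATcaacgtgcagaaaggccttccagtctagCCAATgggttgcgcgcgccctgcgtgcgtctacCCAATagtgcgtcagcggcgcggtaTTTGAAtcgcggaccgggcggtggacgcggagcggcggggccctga
Aurka, chr2:172370521-172370820 (minus strand): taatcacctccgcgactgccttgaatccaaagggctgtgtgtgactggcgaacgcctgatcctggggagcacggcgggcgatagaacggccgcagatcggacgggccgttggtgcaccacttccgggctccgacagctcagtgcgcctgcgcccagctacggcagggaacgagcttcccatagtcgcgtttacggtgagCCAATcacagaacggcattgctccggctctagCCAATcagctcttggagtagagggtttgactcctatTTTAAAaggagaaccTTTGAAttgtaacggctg
Bub1, chr2:127831810-127832109 (minus strand): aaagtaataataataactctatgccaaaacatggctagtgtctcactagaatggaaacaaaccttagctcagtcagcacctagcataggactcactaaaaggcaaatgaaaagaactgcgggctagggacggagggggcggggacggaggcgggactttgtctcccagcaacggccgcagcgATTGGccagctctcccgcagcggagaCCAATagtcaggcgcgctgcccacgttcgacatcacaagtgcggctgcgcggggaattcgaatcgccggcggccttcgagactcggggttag
Cdc20, chr4:118437294-118437593 (minus strand): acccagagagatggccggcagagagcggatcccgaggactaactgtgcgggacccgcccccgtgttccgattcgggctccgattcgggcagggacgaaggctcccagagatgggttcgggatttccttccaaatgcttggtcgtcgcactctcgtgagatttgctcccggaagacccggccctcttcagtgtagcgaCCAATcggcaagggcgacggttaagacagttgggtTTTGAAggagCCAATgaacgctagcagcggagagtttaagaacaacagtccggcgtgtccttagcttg

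All 8 promoters held CCAAT, with 16 matches in all, against 37.4% of the 32851 promoters of the table. TTTGAA lay in 6 of 8 against 17.9%, and TTTAAA, which reads the same on both strands, in 3 of 8 against 13.2%. The Bub1 promoter held neither of them. Plk1 carried TTTAAA at -89 to -84 and -29 to -24 and TTTGAA at 31 to 36, counted from the start. Cdk1 carried TTTGAA at -71 to -66 and -15 to -10, CCAAT on the strand opposite to the gene at -208, -80 and -48, and the TTTCGCGC string at -131 to -124. Ccnb2 carried CCAAT at -87, -54 and -21 at even spacing, and Cdc20 had TTTGAA at -18 to -13 between CCAAT boxes at -53 and -8. The GC box GGGCGG, not capitalised above, lay in 6 of 8 against 35.7%, and the E2F strings (TTTCGCGC or TTTGGCGC or TTTCCCGC or TTTGCCGC) in 1 of 8 against 2.26%. Both strands were searched and no matches within a member overlapped. Ccnb1, Bub1b and Cdc20, which did not pass in bulk, held CHR letters as Plk1, Cdk1, Ccnb2 and Aurka did, and a match of letters is not a bound site.

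In the CUT&Tag lists a gene was counted as marked when a peak summit lay within 3000 bp of an annotated start in at least 2 lists of a group, and the background is the share of 11753 protein-coding genes at 1 TPM or more in sorted WT cells (over all protein-coding genes the shares ran from 9.73% to 63.2%). H3K4me3, the mark of active promoters, was at all 10 members at both ages, as at 91.4% of expressed genes at P7 and 93.5% at P14. By the strongest peak of each gene in a list, its fold enrichment was lowest at Plk1, at 4.42 and 4.20 in the P7 lists and 4.41 and 4.35 in the P14 lists. It was high at Cdk1, at 8.04 and 9.14, and at Bub1, at 8.64 and 8.76, at P7. H3K27ac, a mark of active promoters and enhancers, was at 6 members at P7 (Ccna2, Ccnb2, Cdk1, Aurka, Aurkb and Cdc20; background 52.7%) and at all 10 at P14 (80.4%). Bub1 had no H3K27ac peak in either P7 list and peaks of 7.61 and 6.25 in the P14 lists, where 0.766% and 1.52% of peaks had a higher enrichment. Peak enrichments are scaled within a list, and the depth behind the lists is not given.

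PRMT1 is the main writer of asymmetric dimethylation at H4R3. H4R3me2a was at Ccna2 and Aurka at P7 (2 of 10 members, background 22.8%) and at all 10 at P14 (69.9%). H3R2me2a was at Aurkb alone at P7 (15.4%), where its summit lay within 1000 bp of a start in 1 list and 2598 bp away in the other, and at all but Plk1 at P14 (71.5%). H3R8me2a was at Aurka and Cdc20 at P7 (15.4%) and at 6 members at P14 (Ccna2, Ccnb1, Cdk1, Aurka, Aurkb and Cdc20; 52.5%), and at Cdc20 its summits lay upstream in all 4 lists, at -1747, -1620, -1760 and -1741 bp. H4R3me1 was at Aurka at P7 (16.3%) and at Ccna2, Ccnb1, Cdk1, Aurka and Aurkb at P14 (46.5%). The P14 lists were longer, 39597 to 44836 peaks against 16995 to 18722 for H4R3me2a, so the ages are given side by side. Counts at P7 stood near the background shares, and with equal list length H3R2me2a was at 4 members at P14 and at 29.8% of all protein-coding genes, against 51.4% of them with full lists.

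H4R3me2s, the symmetric form written by PRMT5, is the mark measured in both genotypes. At P7 it was at Cdk1 and Aurka in WT (2 of 10, background 28.8%) and at Cdk1 in Prmt1 dKO (1 of 10, background 14.7%). At Cdk1 the enrichments were 3.90 and 3.14 in the WT lists and 3.19 and 2.81 in the Prmt1 dKO lists. At Aurka they were 4.17 and 5.75 in WT and 4.69 in 1 of the 2 Prmt1 dKO lists. The 2 WT lists held 19981 and 36145 peaks and the 2 Prmt1 dKO lists 33941 and 28221, and no test was made between them. In this comparison the genotypes also differ in mouse line and in tamoxifen as labelled, so that genotype and treatment cannot be told apart. In the lists labelled P14 the mark was at Ccna2, Ccnb2, Cdk1, Aurka and Bub1 (5 of 10, background 54%).

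**Figure D4:**
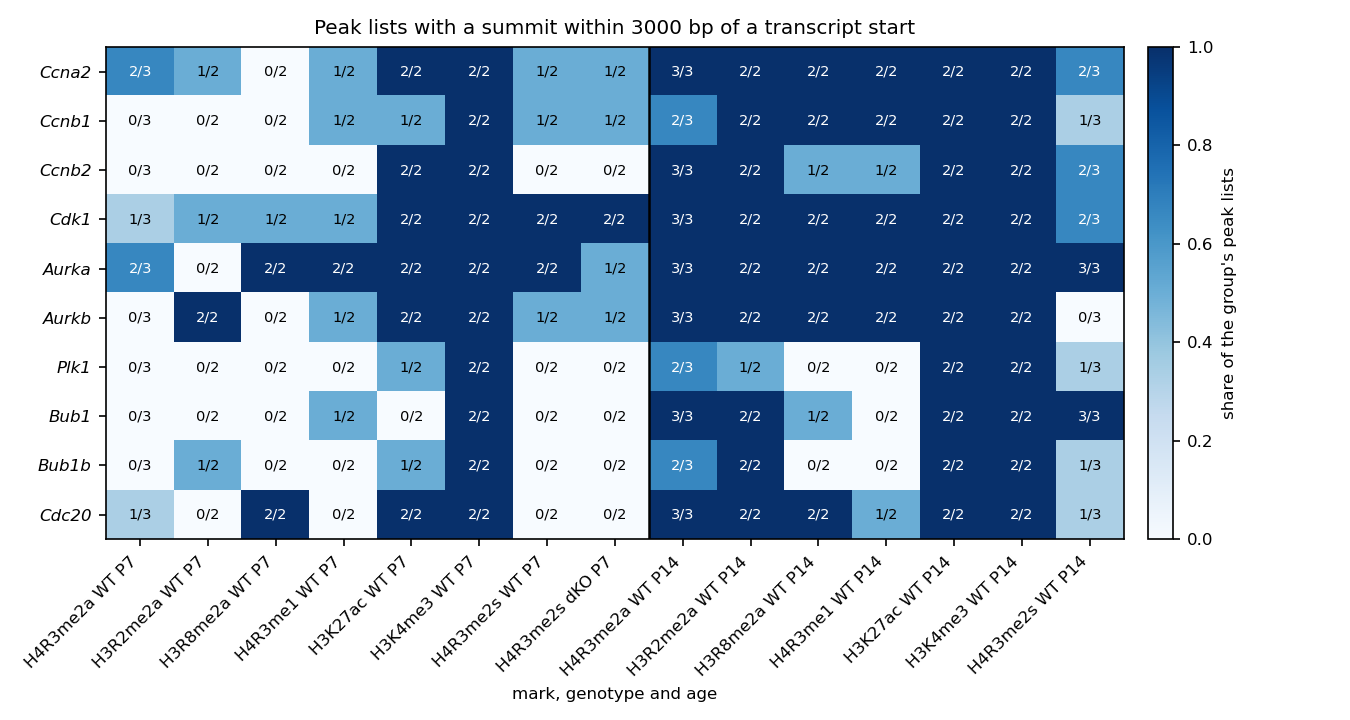
For each member (rows) and CUT&Tag group (columns), the number of peak lists with a summit within 3000 bp of an annotated start, out of the 2 or 3 lists of the group. H3K4me3 fills every cell at both ages, the arginine methylation marks are sparse at P7, and Aurka leads with 29 of 33 lists while Plk1 has 11.

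Over all marks, promoter peaks were found at Aurka in 29 of the 33 lists, at Cdk1 in 27, at Ccna2 in 25, at Aurkb in 22, at Cdc20 in 20, at Ccnb1 in 19, at Ccnb2 in 17, at Bub1 in 16, at Bub1b in 13 and at Plk1 in 11. The median over expressed protein-coding genes was 20, with quartiles of 14 and 24. Members with more annotated starts have more windows, for example 8 starts at Aurkb and 1 at Ccnb2. Of 229 promoter peaks 197 (86.0%) had their summit within 500 bp of a start and 15 lay beyond 1000 bp. The strongest H4R3me2a summits at Aurka in the P14 lists lay at -255, -274 and -245 bp, with enrichments of 5.83, 5.0 and 5.65. The first of these lists held another summit at 591 bp, with an enrichment of 3.47. The start region of Aurka is shared with Cstf1.

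**Figure D5:**
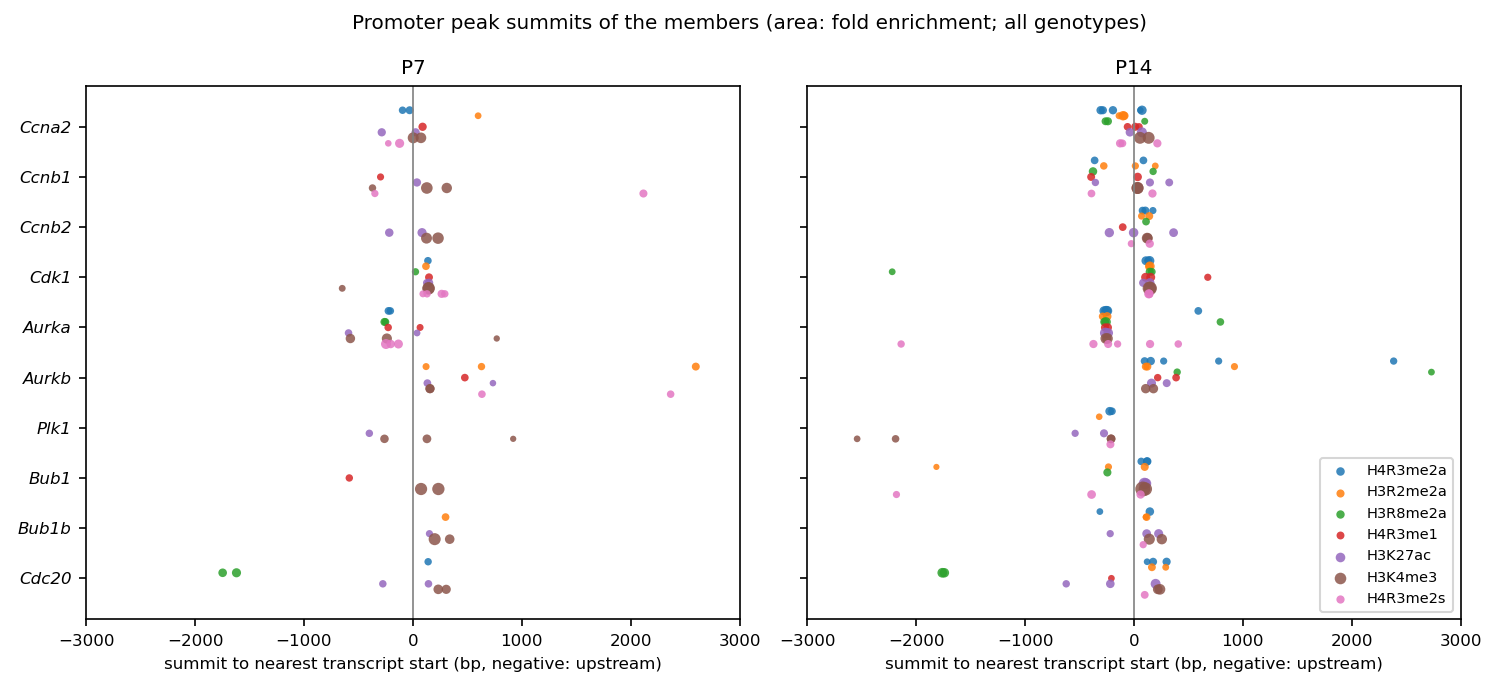
Distance in bp from the nearest annotated start to each promoter peak summit of the 10 members, by mark and age, with upstream positions below 0. Most summits (197 of 229) lie within 500 bp of a start, and the H3R8me2a summits of Cdc20 stand apart between -1760 and -1620 bp.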

How the data were processed

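Bulk RNA-seq (polyA RNA of testes) and Smart-seq2 (oligo-dT, FACS-sorted EGFP-positive cells) were deposited by the authors as RSEM gene tables on mm10, from which the expected count was rounded to whole numbers for all tests, TPM was used for levels and effective length for the Bub1 comparison, and FPKM was not used. CUT&Tag was deposited as MACS2 peak lists that the authors called for each sample. The fold enrichment of a peak (a ratio over background) and its -log10 p and q were computed by the authors with MACS2 and used as deposited. The submitters' processing notes name fastp 0.23.2 and MACS2 2.1.0, and no source used here gives the RSEM version. GENCODE M21 named 55141 of the 55401 genes in the tables and left 260 without a symbol.

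Each RNA assay was fitted on all genes with edgeR 4.0.16 in R 4.3.3 (TMM, filterByExpr with a minimum count of 10 and a total of 15, quasi-likelihood test, two-sided, Benjamini-Hochberg adjustment). A gene passed at an FDR below 0.05 and was called when it also changed by at least 2-fold. A joint fit over both assays gave the interaction. CPM are TMM-scaled, and log2 CPM used a prior count of 2. Alternatives were RLE scaling, DESeq2 1.42.0, limma-voom (limma 3.58.1), no filter, a replicate block and leaving out each library, and for peaks a 1000 bp window, a q of at most 0.01, lists of equal length and overlap in place of the summit. Similar genes were found with blastn 2.17.0 at 100 bases and 95% identity or more. Fits were tested on simulated data.

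The members and lists were chosen with earlier results of these data known. Named genes were the members, Prmt1, up to 3 listed genes per direction and assay with the largest change among those called, or the lowest p where none was called (mean of at least 50 counts), neighbours of the members' starts, near-identical copies, and the 5 genes most like the members' mean, of which 1 is not reported here. Deviations of same-numbered libraries had low correlations (0.0825, -0.221 and -0.119 in bulk and 0.0177 in Smart-seq2), and the main fits used no pairing. With 2 or 3 libraries per group these correlations cannot exclude pairing.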

Additional observations from a re-analysis of the deposited data

Results flagged for a closer look

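The genotype difference differed between sorted cells and whole testes for Ccna2 and for 8 of the 12 genes named from the cell division lists, by the interaction term of the joint edgeR fit (Smart-seq2 difference minus bulk difference, log2). Over all genes tested 14.7% passed in the higher and 4.24% in the lower direction, and the median was 0.22. The fit assumed the same spread in both assays. The 12 genes were picked for a large change or a low p in one of the assays compared, which favours a difference between them, so their count is a description. Ccna2 had 0.85 (edgeR FDR = 0.0252) and was 1 of 10 members, a share not above the 14.7% of all genes. Ccna2 did not pass with a replicate block or when any WT testis library was left out. Nor did it pass without the first or the second Prmt1 dKO testis library. Cks2 had 1.63 (0.000932), Mad2l1 1.75 (0.00140), Cdkn1c 1.72 (0.00229), E2f7 1.56 (0.0393) and E2f8 4.98 (0.0413). E2f8 was listed at 1.02 and 0.00 TPM (27 and 0 counts) in the sorted WT libraries, so its value rests on WT libraries that disagreed at low counts. In the other direction Ccne2 had -1.02 (0.0229), Ccnb3 -2.79 (0.00468) and Cdkn2d -1.22 (0.0219). No cause was weighed, and no group held enough RNA libraries to look for a single library far from the others.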

How the results depend on the processing

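In bulk the 10 members' estimates stayed below 0 under every alternative run, and 6 members passed under RLE, DESeq2, limma-voom and no filter, with 3 to 7 when 1 library was left out. Pathway genes passing in bulk numbered 41 lower and 2 higher, 21 to 58 and 0 to 4 with 1 library left out, and 5 to 10 were called lower. In the fit with a replicate block, 4 members, 27 lower and 0 higher pathway genes passed in bulk and 0 members passed the interaction. In Smart-seq2, where edgeR called none, DESeq2 and limma-voom each called and passed 1 member lower. For pathway genes DESeq2 called 8 lower and 9 higher and passed 13 and 9, and limma-voom called 3 and 3 and passed 4 and 3. Over all genes DESeq2 called 3.93% and limma-voom 0.912% lower, and the other shares were not taken. With 1 library left out, members called were 0 to 1 lower and 0 to 2 higher, members passed 0 to 2 and 0 to 2, pathway genes called 0 to 10 and 0 to 20, and passed 0 to 20 and 0 to 31. The interaction counted 1 member, 2 under RLE and under DESeq2, and 0 to 6 with 1 library left out.

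Signs in Smart-seq2 turned only for 6 members whose estimates lay within 0.07 of 0 on the log2 scale. RLE gave -0.030 for Cdk1 and -0.043 for Aurka, DESeq2 gave -0.035 and -0.047 for the same genes, limma-voom gave 0.018 for Ccnb2, the replicate block gave 0.014 for Ccnb2, and no filter gave -0.0030 for Aurka. With 1 library left out, the estimates ran from -0.15 to 0.26 for Ccna2, from -0.47 to 0.55 for Ccnb2, from -0.23 to 0.36 for Cdk1, from -0.069 to 0.11 for Aurka, from -0.28 to 0.15 for Aurkb and from -0.39 to 0.39 for Plk1. By CPM in place of TPM the ratio of Prmt1 dKO to WT was 0.747 for Aurka and 0.907 for Cdc20 in bulk, and 1.05 for Ccna2, 1.0005 for Aurka, 0.968 for Aurkb and 0.482 for Bub1 in Smart-seq2.

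At a q of at most 0.01 the members marked at P7 were 0 for H4R3me2a, H3R2me2a, H4R3me1 and H4R3me2s in either genotype, where 0.247% to 1.56% of all protein-coding genes were marked, 1 for H3R8me2a (1.05%) and 2 for H3K27ac (10.5%). At P14 they were 4 for H4R3me2a (19.4%) and H3R2me2a (28.3%), 2 for H3R8me2a (11.6%) and H4R3me1 (10.1%) and 0 for H4R3me2s (6.57%). Within 1000 bp H3R2me2a marked 0 (6.78%) and H3R8me2a 1 (6.91%) at P7. With lists of equal length H4R3me2s in Prmt1 dKO marked 0 at P7 (4.98%). At P14 such lists gave 8 for H4R3me2a (30.8%), 4 for H3R2me2a (29.8%), 4 for H3R8me2a (20.8%) and 4 for H4R3me2s (28.8%). Leaving out 1 list gave 0 to 1 for H4R3me2a at P7 (7.80% to 8.24%) and 7 to 9 at P14 (34.5% to 38.7%). For H4R3me2s at P14 it gave 2 to 5 (20.2% to 24.3%). The cause of these changes was not tested. Smart-seq2 has 2 libraries per genotype, and the sequencing depth behind the peak lists is unknown.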
